A study of Homo sapiens with 8 samples.

Results

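The 10 genes described here, *PRRX1*, *RUNX1*, *RUNX2*, *FOSL1*, *FOSL2*, *SNAI2*, *TWIST1*, *YAP1*, *WWTR1* and *NOTCH3*, are regulators linked to the mesenchymal state of neuroblastoma (NB) cells. They were taken as a list of gene names and not by a cut on their methylation values. Earlier results of these data were known at that point, so the choice was not blind. They make up 10 of the 20090 protein-coding genes of chromosomes 1 to 22 and X in the annotation used (GENCODE release 44, lifted to GRCh37). Methylated DNA of 8 established NB cell lines was captured with MBD2, a protein whose MBD domain binds methylated CpGs, and sequenced (MBD-seq), and 1 list of peaks was deposited for each line. By the labels, CHP-902R, IMR-32, LAN-2 (titled LA-N-2) and N206 carry amplified *MYCN* (MNA lines), while SJNB-1, SK-N-AS, CLB-GA and SH-SY5Y do not (*MYCN* single copy lines). No drug treatment of the cells is given for the captured DNA, and each line is a single sample with no replicate culture. SK-N-AS was set against the 7 other lines because the selection of these genes names it as the mesenchymal-like line of the panel. This name is not in the labels, and expression was not measured in these files, so it could not be checked against markers here.

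NB cells occur in an adrenergic state, held by factors of sympathetic neuron development, and in a mesenchymal state that resembles neural crest or fibroblast-like cells. The mesenchymal state is known for homeobox, RUNX and AP-1 transcription factors, for factors of epithelial-mesenchymal transition, for the co-activators of the Hippo pathway and for NOTCH signalling. Methylation of CpG-rich DNA at a transcription start site (TSS) usually goes with silence of the gene, whereas methylation within a transcribed gene body is common in active genes, and a peak says nothing of expression by itself.

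The values are covered lengths. A promoter window started 1500 bp before and ended 1000 bp after each TSS of a gene, and its cover is the number of bp of these windows that lie in peaks. Gene-body cover is the percentage of the gene record that lies in peaks. The score of a peak is the one deposited with it, on the scale of MACS, which rises with the evidence for enrichment and starts at 50 in all 8 lists. The lists held 70816 to 112412 peaks and covered 39.8 to 61 Mb, with 86079 peaks and 47.5 Mb in SK-N-AS. Reads per line are not in the lists, so no interval for a missing peak can be given, and copy number, which also sets the yield of captured DNA, was not measured here. The overlap of covered bases between 2 lines, as a share of the bases covered in either, was 0.118 to 0.157, and the 7 pairs with SK-N-AS gave 0.118 to 0.137.

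The members differed widely in their records and in the CpG content of their promoters. The window around the TSS of the canonical transcript held 10.1 CpGs per 100 bp at *FOSL2*, 8.32 at *TWIST1*, 7.36 at *YAP1*, 7.12 at *FOSL1*, 6.44 at *NOTCH3* and 5.84 at *WWTR1*. It held 3.88 at *PRRX1*, 3.16 at *SNAI2*, 1.56 at *RUNX1* and 0.52 at *RUNX2*. The median over 19812 protein-coding genes was 4.24 CpGs per 100 bp, so 6 members lay above it and 4 below. Capture with MBD2 needs methylated CpGs, and a CpG-poor window offers few of them.

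4 stretches of GRCh37 sequence are printed here because the peaks described below turn on them. Each is written 5′ to 3′ on the strand of its gene, with CpG dinucleotides in capitals. The first is the 132 bp upstream of *TWIST1* at chr7:19158002-19158133 (minus strand) that lay in peaks of 6 lines and in none of SH-SY5Y and SK-N-AS. The second is the centre of the part of *NOTCH3* intron 1 that lay in peaks of all 8 lines, at chr19:15309969-15310268 (minus strand). The third is the centre of the region shared by 7 lines at *RUNX2*, chr6:45521640-45521939 (plus strand), which lies beyond the end of the canonical transcript. The fourth is the 300 bp directly upstream of a TSS of *WWTR1*, chr3:149375829-149376128 (minus strand), covered whole by peaks of IMR-32 and CHP-902R. None of the 4 touches an annotated untranslated region of its gene.
TWIST1 upstream: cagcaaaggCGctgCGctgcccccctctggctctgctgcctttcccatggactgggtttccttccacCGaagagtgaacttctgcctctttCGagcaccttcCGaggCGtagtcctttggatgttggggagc
NOTCH3 intron 1: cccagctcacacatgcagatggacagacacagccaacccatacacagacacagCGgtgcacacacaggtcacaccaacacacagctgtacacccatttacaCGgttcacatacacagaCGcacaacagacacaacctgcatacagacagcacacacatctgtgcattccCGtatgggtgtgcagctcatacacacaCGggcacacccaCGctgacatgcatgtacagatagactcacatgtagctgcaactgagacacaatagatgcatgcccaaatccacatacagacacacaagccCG
RUNX2 downstream: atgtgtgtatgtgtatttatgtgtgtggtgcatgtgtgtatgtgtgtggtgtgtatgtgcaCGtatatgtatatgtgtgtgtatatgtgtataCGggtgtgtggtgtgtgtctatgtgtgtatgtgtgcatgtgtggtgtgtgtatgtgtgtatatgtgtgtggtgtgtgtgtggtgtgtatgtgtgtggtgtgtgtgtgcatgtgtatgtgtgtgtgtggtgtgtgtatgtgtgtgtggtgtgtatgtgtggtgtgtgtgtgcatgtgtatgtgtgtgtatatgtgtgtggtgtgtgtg
WWTR1 upstream: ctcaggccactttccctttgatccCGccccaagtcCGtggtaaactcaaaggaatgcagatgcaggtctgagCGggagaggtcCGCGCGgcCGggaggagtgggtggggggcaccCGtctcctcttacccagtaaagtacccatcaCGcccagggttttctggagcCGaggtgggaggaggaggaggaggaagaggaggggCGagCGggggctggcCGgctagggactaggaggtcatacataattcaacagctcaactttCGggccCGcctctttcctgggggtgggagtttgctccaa
The stretches held 4.55, 2.33, 0.667 and 5 CpGs per 100 bp in this order. The *RUNX2* stretch is a run of TG-rich repeats with 2 CpGs in 300 bp, and the *NOTCH3* stretch is rich in CA repeats with 7 CpGs in 300 bp, while the *TWIST1* and *WWTR1* stretches hold 6 CpGs in 132 bp and 15 in 300 bp.

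At the promoters, 9 of the 10 members had a peak in at least 1 line, against 74.1% of all protein-coding genes. *SNAI2* was the member with none, like 25.9% of all genes. In SK-N-AS 3 members had a promoter peak (*RUNX1*, *RUNX2* and *NOTCH3*), against 33.8% of all genes in that line. The 7 other lines had 2 to 5, with 5 in LAN-2 (background 40%), 5 in CHP-902R (37.7%) and 4 in IMR-32 (41.1%) at the top. SH-SY5Y (38.5%), N206 (36.3%) and SJNB-1 (33.4%) had 3 each and CLB-GA (35.8%) had 2. SK-N-AS thus lay inside the range of the other lines, and all 8 counts were within 2 genes of what the background share gives for 10 genes. SK-N-AS was the sole line with a promoter peak at 1 member, *RUNX2* (1.44% of all genes show this), and the sole line without one at 0 members (1.38% of all genes). With 1 line against 7 no test was made, since the smallest p that such a design allows is 0.125.

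**Figure D1:**
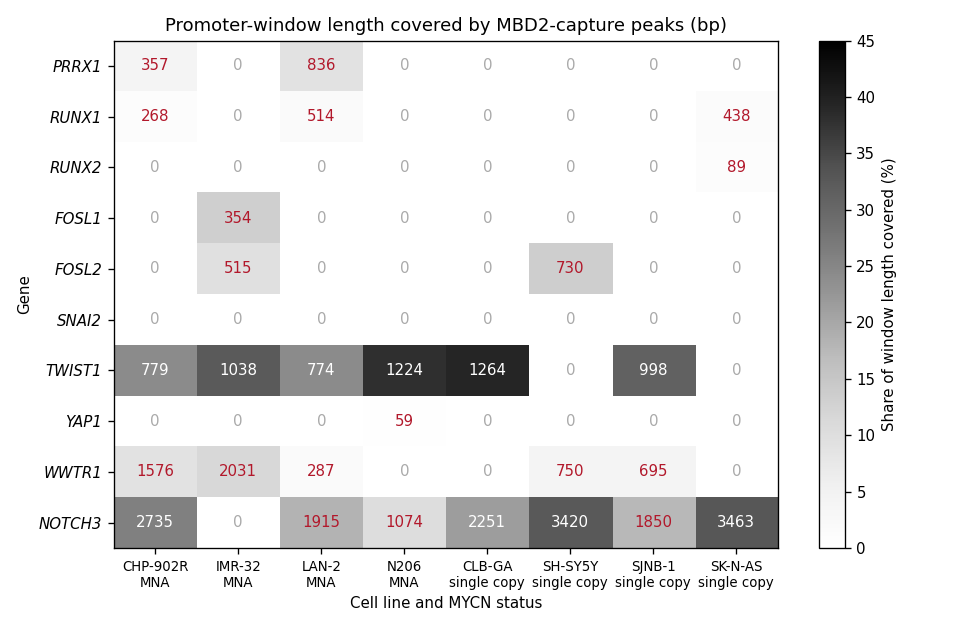
Length of the promoter windows covered by peaks, in bp, for the 10 genes (rows) in the 8 lines (columns, MYCN status below the name); the grey scale gives the same length as a share of the gene's total window length. *TWIST1* was covered by 774 to 1264 bp in 6 lines and by 0 bp in SH-SY5Y and SK-N-AS, and *SNAI2* was at 0 bp in all 8.

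*TWIST1*, a basic helix-loop-helix factor that drives epithelial-mesenchymal transition, had a promoter peak in 6 lines, more than any member but *NOTCH3*. Its window cover was 1224 bp in N206, 1038 bp in IMR-32, 779 bp in CHP-902R and 774 bp in LAN-2. It was 1264 bp in CLB-GA, 998 bp in SJNB-1 and 0 bp in SH-SY5Y and SK-N-AS, out of a window of 3213 bp. All 4 MNA lines and 2 of the 4 single copy lines therefore had a peak, which a two-sided exact test (Fisher's) did not separate (p = 0.429, adjusted p = 1 over all genes). The peaks formed 1 merged region, chr7:19157339-19159071, that began 80 bp upstream of the TSS at its nearest edge and did not enter the transcribed part. The highest score in the region was 168 in N206, 165 in LAN-2, 115 in IMR-32, 104 in SJNB-1, 94.5 in CLB-GA and 61.7 in CHP-902R. The peaks of N206 and LAN-2 ranked above 98.5% and 96.6% of the peaks in their own lists. In SH-SY5Y the nearest peak lay 2304 bp upstream, with a score of 55.8, and in SK-N-AS it lay 7119 bp upstream, with a score of 81. SK-N-AS was thus not the sole line without a peak here, and 87 other protein-coding genes (0.433%) had a promoter peak in the same 6 lines, while 21.7% had one in at least 6 lines.

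**Figure D2:**
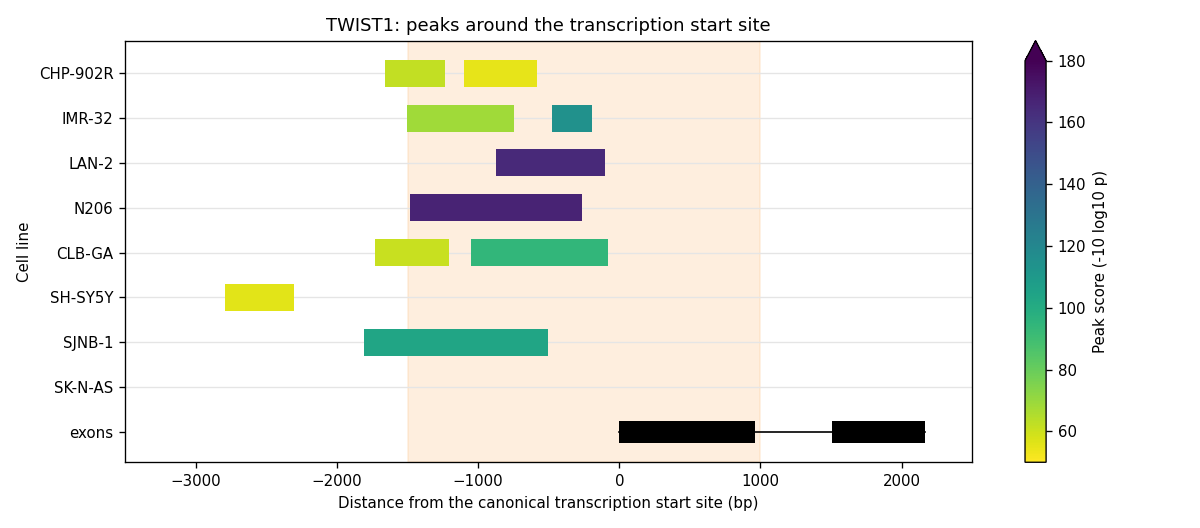
Peaks around the TSS of *TWIST1* in the 8 lines, by distance from the TSS in bp, with the exons of the canonical transcript in the lowest row; colour gives the peak score and the shaded band is the promoter window. The peaks of 6 lines lie upstream of the TSS and overlap each other. The nearest SH-SY5Y peak lies 2304 bp upstream outside the window, and SK-N-AS has none in the drawn span. Of the peaks outside both the window and the gene record, only the one nearest to a TSS is drawn for each line.

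*WWTR1*, which encodes TAZ, a co-activator held back by the Hippo kinases, was covered in 5 lines. Its windows, 17785 bp in all over 11 TSSs, were covered by 2031 bp in IMR-32, 1576 bp in CHP-902R and 750 bp in SH-SY5Y, with 695 bp for SJNB-1 and 287 bp for LAN-2. N206, CLB-GA and SK-N-AS had 0 bp. In 4 of these 5 lines a peak lay in 1 region at the canonical TSS, chr3:149374425-149376485, which held 6.94 CpGs per 100 bp and ran into coding exon 2. The IMR-32 peak was 2031 bp long with a score of 149, the CHP-902R peak 1126 bp with 120, the SH-SY5Y peak 750 bp with 82.8 and the SJNB-1 peak 695 bp with 111. The peaks of IMR-32 and CHP-902R spanned the TSS and the upstream stretch printed above, whereas those of SH-SY5Y and SJNB-1 ended short of it on the transcribed side. The LAN-2 peak lay at another TSS further upstream, and CHP-902R had a second peak of 450 bp, with a score of 59.4, near an internal TSS. By *MYCN* status 3 MNA and 2 single copy lines had a promoter peak (exact test of Fisher, p = 1).

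*YAP1*, which encodes another co-activator held back by the Hippo kinases, showed nothing of this. Its window cover was 59 bp in N206, from the edge of a peak with a score of 61.4 near an internal TSS in the 3' part of the gene, and 0 bp in the 7 other lines. Its CpG-rich canonical window, which held more CpGs per 100 bp than 89.7% of all genes, was free of peaks in all 8 lines.

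*NOTCH3*, a NOTCH receptor, had a promoter peak in 7 lines, and 13.5% of all genes had one in at least 7. The cover was 2735 bp in CHP-902R, 1915 bp in LAN-2 and 1074 bp in N206. It was 2251 bp in CLB-GA, 3420 bp in SH-SY5Y, 1850 bp in SJNB-1 and 3463 bp in SK-N-AS, with 0 bp in IMR-32. Most of this cover came from internal TSSs of short transcripts far inside the gene. At the canonical TSS 2 lines had a peak, SJNB-1 with a score of 68.3, ending 134 bp upstream, and SH-SY5Y with a score of 55.8, 416 bp upstream. By *MYCN* status 3 MNA and 4 single copy lines had a promoter peak (exact test of Fisher, p = 1).

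The AP-1 members are both leucine zipper factors that pair with JUN proteins. *FOSL1* had a promoter peak in IMR-32 alone, with 354 bp of the window covered and a score of 60.1. *FOSL2* had one in IMR-32 (515 bp, score 63.1) and in SH-SY5Y (730 bp, score 112), both around an internal TSS. The CpG-rich canonical window of *FOSL2*, denser in CpGs than that of 98.7% of all genes, held no peak in any of the 8 lines. A promoter peak in IMR-32 alone is shared with 570 other genes (2.84%).

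The RUNX members, DNA-binding partners of CBFB, had promoter peaks at alternative start sites only. *RUNX1* windows were covered by 268 bp in CHP-902R, 514 bp in LAN-2 and 438 bp in SK-N-AS, and by 0 bp in the 5 other lines. These 3 peaks lay at 3 separate positions, chr21:37375913-37376232, chr21:37356822-37357335 and chr21:37377380-37377817, at the far 5' end of a record of 1220 kb, while the canonical transcript spans 262 kb. The *RUNX2* peak of SK-N-AS, chr6:45391226-45391745, reached 89 bp into the window of an internal TSS. Its sequence was CpG-rich, at 9.04 CpGs per 100 bp, but its score was 52.9, above no more than 11.1% of the peaks of SK-N-AS. The canonical windows of both RUNX genes were free of peaks in all 8 lines.

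*PRRX1*, a homeobox factor of mesenchyme, had a window cover of 357 bp in CHP-902R and 836 bp in LAN-2, and 0 bp in the 6 other lines. In both lines a peak lay near an internal TSS, with scores of 112 and 81.7, and LAN-2 had a further peak with a score of 120, 1034 bp from the 5' end of the record. *SNAI2*, the zinc finger repressor SLUG, had no peak in its window or its gene body in any line, which holds for 9.64% of all genes. In 5 lines a peak began just outside the window, 1524 bp upstream of a TSS in LAN-2, 1548 bp in SH-SY5Y, 1558 bp in N206, 1561 bp in SJNB-1 and 1599 bp in SK-N-AS. Their scores were 65.2 to 93.8. The nearest peak of CHP-902R, IMR-32 and CLB-GA was 7252 to 25112 bp away.

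With the canonical TSS alone as a start, 4 of the 10 members kept a promoter peak in any line, against 49.3% of 19812 genes. They were *TWIST1* in 6 lines, *WWTR1* in 4, *NOTCH3* in 2 and *FOSL1* in 1. SK-N-AS had none at any of the 10 canonical windows, while LAN-2, N206 and CLB-GA had one at *TWIST1* only. The share of all genes with such a peak in SK-N-AS was not computed.

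Along the gene bodies, SK-N-AS stood above every other line at 4 of the 10 members, *RUNX2*, *FOSL1*, *TWIST1* and *NOTCH3*, and below every other line at 1, *FOSL2*. Over all protein-coding genes SK-N-AS was above in 7.97% and below in 6.68%, or in 9% and 7.55% of the 17796 genes with a body peak in at least 1 line. The share among the members exceeded the background for the upper side. It rested on 4 genes and was not tested. When peaks were limited to a score of at least 100, SK-N-AS was above at 0 members and below at 0. SK-N-AS also had the lowest share of peaks at that score, 11.5% of its list against 12% to 22.8% in the others. With the same number of peaks taken from each list by score, *RUNX2* and *NOTCH3* stayed above. The share over all genes was not computed at either setting.

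**Figure D3:**
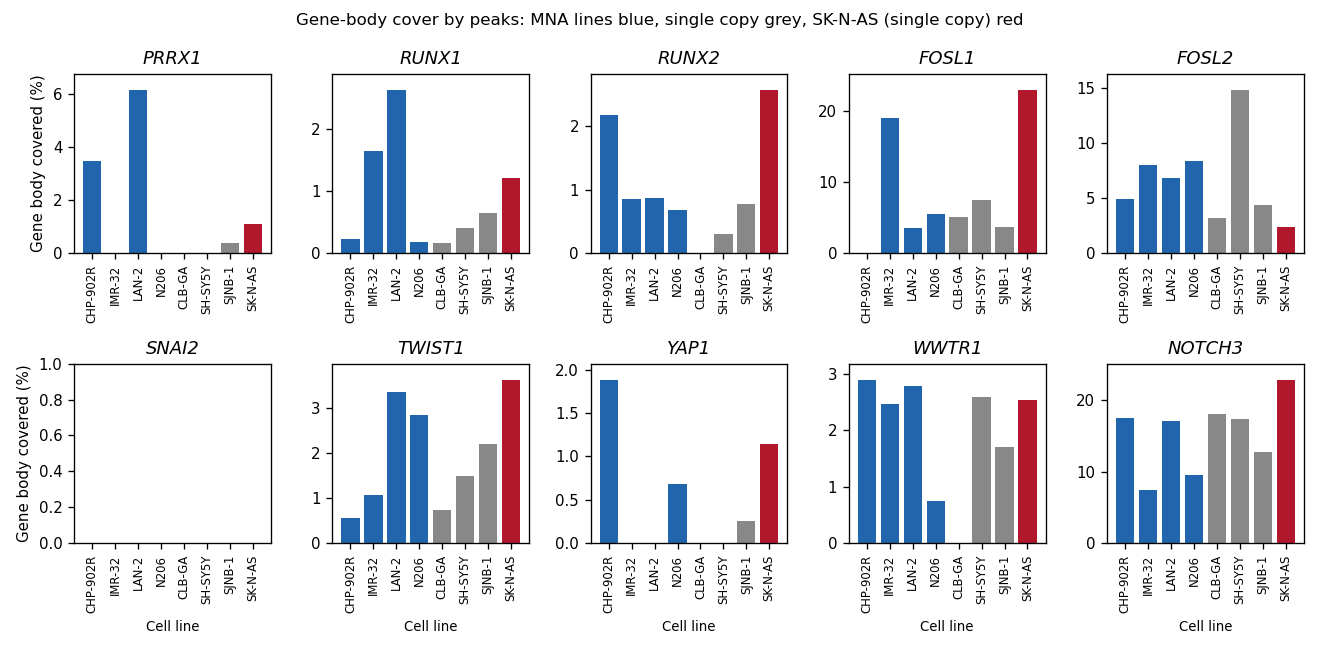
Percentage of the gene record covered by peaks for the 10 genes (panels) in each line; MNA lines are blue, single copy lines grey and SK-N-AS, also single copy, red, and each panel has its own vertical axis starting at 0. SK-N-AS has the highest bar at *RUNX2* (2.57%), *FOSL1* (23%), *TWIST1* (3.62%) and *NOTCH3* (22.8%) and the lowest at *FOSL2* (2.38%), and *SNAI2* is at 0 in all lines.

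*RUNX2* had a gene-body cover of 2.57% in SK-N-AS, 2.17% in CHP-902R, 0.87% in LAN-2, 0.86% in IMR-32, 0.77% in SJNB-1, 0.69% in N206, 0.3% in SH-SY5Y and 0% in CLB-GA. SK-N-AS and CHP-902R stood apart from the 6 others, and the 7 lines without SK-N-AS averaged 0.807% ± 0.683 (SD, n = 7). The count of peaks gave the same order at the top, with 19 in SK-N-AS, 16 in CHP-902R and at most 6 elsewhere. In the 1 Mb on either side of the gene the cover was 1.3% in CHP-902R, 1.29% in SK-N-AS and 0.381% to 0.903% in the others, so the same lines were highest outside the gene as inside it. Whether copy number has a part in this was not tested. Of the 36 merged *RUNX2* regions 12 (33.3%) were seen in SK-N-AS alone, against 6.82% of the regions at all protein-coding loci, with scores of 50.3 to 109 and a median of 68. The 1 strong region shared widely was the TG-rich stretch printed above, chr6:45521428-45522176, with scores of 125 to 334 in 7 lines and no peak in CLB-GA. Its 0.668 CpGs per 100 bp was the lowest density among the 18 member regions found in 5 or more lines, whose median was 3.55. Whether the peaks on this CpG-poor repeat reflect methylation was not tested.

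*NOTCH3* was the member with the highest body cover in all lines but IMR-32 and SK-N-AS, where *FOSL1* had more. It reached 22.8% in SK-N-AS, 18.1% in CLB-GA, 17.5% in CHP-902R, 17.3% in SH-SY5Y and 17% in LAN-2. The values were 12.8% in SJNB-1, 9.48% in N206 and 7.41% in IMR-32. The median over all genes was 1.26% to 2.31% by line. The average was 17.8% ± 4.09 (SD, n = 4) for single copy lines and 12.9% ± 5.18 (SD, n = 4) for MNA lines, a difference that a two-sided exact permutation test over all 70 relabelings did not separate (p = 0.171, adjusted p = 1 over all genes). The flanking 1 Mb was also most covered in SK-N-AS, at 2.88% against 1.77% to 2.58% in the others.

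Intron 1 of *NOTCH3* held the single member region found in all 8 lines, chr19:15308840-15310729. Its scores were 208 in LAN-2, 184 in SK-N-AS, 166 in N206, 132 in CLB-GA, 121 in CHP-902R and 120 in SH-SY5Y, followed by 108 in SJNB-1 and 87.6 in IMR-32. The bases common to all 8 peaks, chr19:15309788-15310450, contain the CA-rich stretch printed above and have 1.96 CpGs per 100 bp. A region over exon 4 and its neighbours, chr19:15302123-15303831, was covered in 6 lines, with scores of 55.5 to 141, and in neither SJNB-1 nor SK-N-AS. A region in the last coding exon, exon 33, chr19:15271379-15272725, was covered in 7 lines and not in N206. Its scores were highest in CHP-902R (177) and SH-SY5Y (172) and lowest in IMR-32 (53.7). Split into 3 equal parts from the 5' end, the gene showed uneven cover: SK-N-AS had 23.3%, 26.7% and 18.4% covered, and IMR-32 had 19.1%, 0% and 3.17%.

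**Figure D4:**
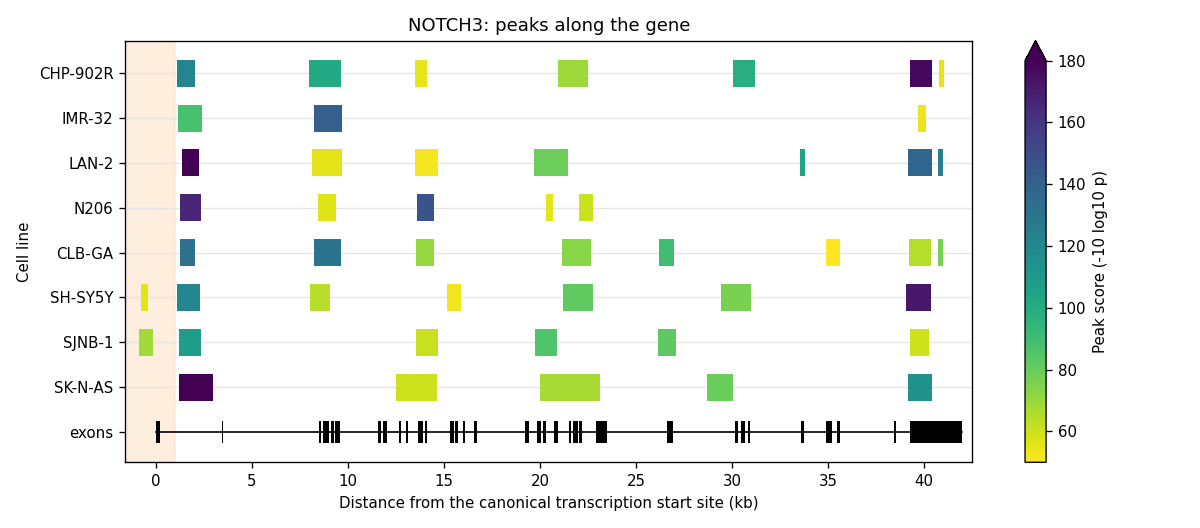
Peaks along *NOTCH3* in the 8 lines, by distance from the canonical TSS in kb, with exons in the lowest row; colour gives the peak score and the shaded band is the window of the canonical TSS. All 8 lines have a peak in intron 1, with scores of 87.6 to 208, and only SH-SY5Y and SJNB-1 have one upstream of the TSS.

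*FOSL1*, at 8.53 kb the second shortest member after *SNAI2*, had 23% of its record covered in SK-N-AS and 19% in IMR-32. The others had 7.45% in SH-SY5Y, 5.56% in N206, 5.14% in CLB-GA, 3.64% in SJNB-1, 3.54% in LAN-2 and 0% in CHP-902R. SK-N-AS and IMR-32 stood apart from the 6 others. In a gene of this length 1 peak decides such a value, and SK-N-AS held 3 peaks with scores of 52.2 to 79.8 where IMR-32 held 2. No *FOSL1* peak of any line reached a score of 100. The flanks did not follow, since SK-N-AS had 3.8% of them covered, against 3.48% to 7.89% in the others, with IMR-32 the highest.

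*FOSL2* ran the other way, with 2.38% in SK-N-AS, 3.15% in CLB-GA, 4.4% in SJNB-1, 4.9% in CHP-902R and 6.79% in LAN-2. It was 7.97% in IMR-32, 8.38% in N206 and 14.8% in SH-SY5Y. SK-N-AS had a single peak, at coding exon 4, in a region shared by 6 lines, chr2:28634782-28635459, with a score of 68.7 there. It lacked the region over exon 2, chr2:28626592-28627735, which was covered in 6 lines with scores of 50.2 to 122 and not in CHP-902R either.

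The *TWIST1* record extends over 96.6 kb because of a long alternative transcript, while the canonical transcript spans 2.17 kb. No line had a peak in the canonical transcript, so the body cover of *TWIST1*, 3.62% in SK-N-AS and 0.563% to 3.36% in the others, came from the DNA downstream of it. The flanks were also most covered in SK-N-AS, at 2.14% against 0.813% to 2.09%. At *TWIST1* the line with the most cover downstream was thus one of the pair with none at the promoter.

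*RUNX1* held the most peaks of any member, 170 of 432. The peaks were 65 in LAN-2, 37 in IMR-32, 32 in SK-N-AS, then 14 in SJNB-1, 9 in SH-SY5Y, 5 in CHP-902R, 4 in N206 and 4 in CLB-GA. Its body cover was 2.64% in LAN-2, 1.65% in IMR-32, 1.22% in SK-N-AS and 0.159% to 0.65% in the 5 others. The flanks did not show this order, with 3.45% in LAN-2 and 3.15% in CHP-902R as the highest and 2.49% in SK-N-AS. No more than 64 of the 170 peaks lay in the canonical transcript. The region that was strongest in most lines covered coding sequence of the last exon, exon 9, chr21:36164012-36165444, with scores of 257 in LAN-2, 226 in CHP-902R, 217 in N206, 159 in SJNB-1, 153 in CLB-GA, 143 in SH-SY5Y and 96.2 in IMR-32. SK-N-AS alone had no peak there, and its nearest peak lay 33.4 kb away. The bases common to the 7 peaks, chr21:36164459-36164907, had 11.8 CpGs per 100 bp. Among 2415 regions at protein-coding loci that were covered in exactly 7 lines, SK-N-AS was the missing one in 17.8%, so this absence is common among such regions. At a score of at least 100 the body cover of *RUNX1* was higher by 0.2 percentage points in the MNA lines (exact permutation test, p = 0.0286). This p is unadjusted and is the smallest value that 4 against 4 allows. At this setting 144 of the 20090 protein-coding genes passed the same unadjusted threshold for body cover. The MNA lines also had the longer peak lists. No other member passed the threshold for body cover at any setting. With all peaks the *RUNX1* difference was 0.567 (exact permutation test, p = 0.429).

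*WWTR1* had a body cover of 2.89% in CHP-902R, 2.79% in LAN-2, 2.59% in SH-SY5Y, 2.54% in SK-N-AS and 2.46% in IMR-32, and of 1.71% in SJNB-1, 0.74% in N206 and 0% in CLB-GA. SK-N-AS took the fourth place and lay among the 5 lines of like cover. It shared with 5 other lines a region upstream of the canonical start but inside the longer record, chr3:149431171-149432450, with a score of 71.4 there against 69.1 to 160. *YAP1* had 1.88% in CHP-902R, 1.14% in SK-N-AS, 0.68% in N206, 0.25% in SJNB-1 and 0% in the 4 others. The flanks of *YAP1* were most covered in CHP-902R, at 1.37%, and SK-N-AS, at 0.401%, was inside the range of the others.

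*PRRX1* had 6.15% in LAN-2, 3.46% in CHP-902R, 1.1% in SK-N-AS, 0.37% in SJNB-1 and 0% in the 4 other lines. LAN-2 also had 4.45% of the flanks covered, against 0.671% to 1.15% in the others.

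**Figure D5:**
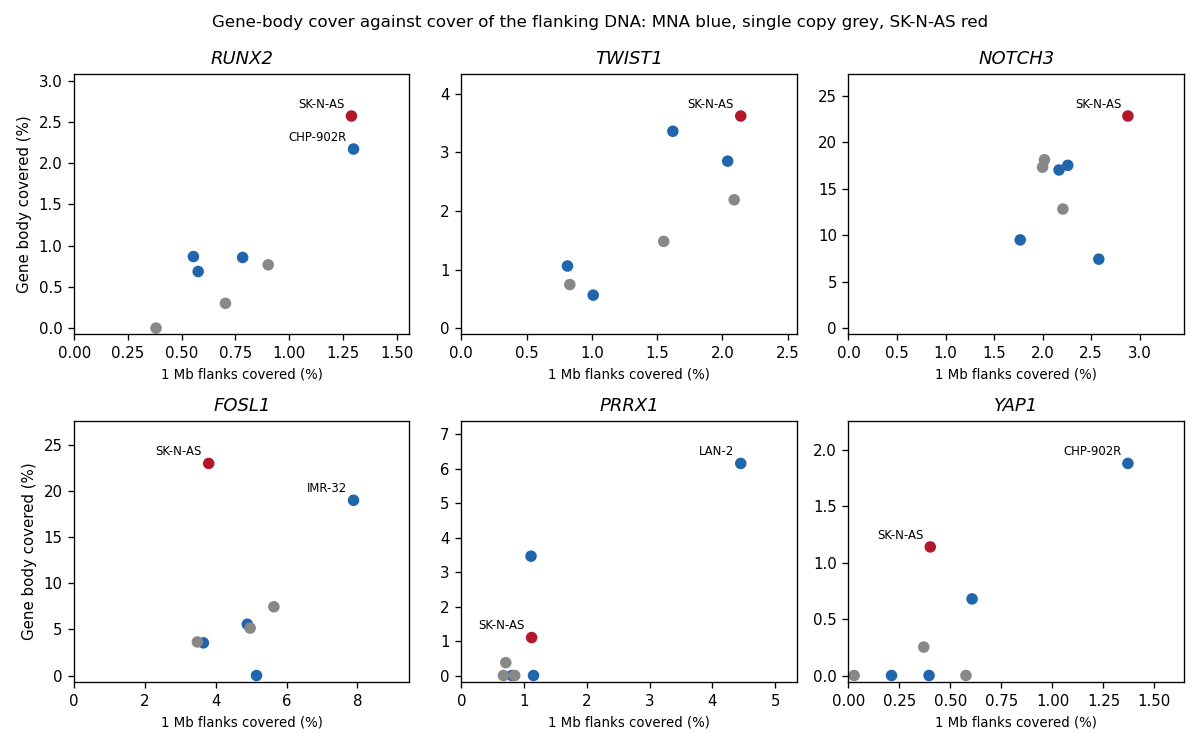
Gene-body cover (vertical, %) against the cover of the 1 Mb on either side of the gene (horizontal, %) for 6 members, 1 point per line; MNA lines are blue, single copy lines grey and SK-N-AS red, and the axes differ between panels. SK-N-AS and CHP-902R are the 2 highest points on both axes at *RUNX2*, LAN-2 is the highest on both at *PRRX1*, and SK-N-AS at *FOSL1* has a high gene-body cover (23%) with flanks of 3.8%.

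In all, the member loci held 432 peaks in 247 merged regions, of which 165 (66.8%) were seen in 1 line, against 54.5% of the regions at all protein-coding loci. Leaving out *RUNX1*, where 94 of 121 regions (77.7%) were seen in 1 line, the share was 56.3% (71 of 126), near that background. SK-N-AS accounted for 82 peaks, or 9.53 per 10000 peaks of its list, LAN-2 for 9.43, and the others for 2.43 to 6.89. Without *RUNX1* the value was 5.81 in SK-N-AS, 5.18 in CHP-902R and 1.92 to 4.1 in the others. SK-N-AS alone held 36 of the regions (14.6%), against 6.82% at all protein-coding loci, of which 17 lay at *RUNX1* and 12 at *RUNX2*. LAN-2 alone held more, with 51, and IMR-32 alone held 27, CHP-902R 21 and each other line at most 12. The shares of these other lines at all protein-coding loci were not computed, so their counts have no background here. Of the 36 regions of SK-N-AS alone, 2 at *RUNX1* and 1 at *RUNX2* had a score of at least 100. Of all 82 SK-N-AS peaks 10 (12.2%) reached that score, near the 11.5% of its whole list. In the other lines 14% to 32.3% of the member peaks reached that score, and the whole lists had 12% to 22.8%.

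By *MYCN* status 0 of the 10 members passed the threshold of p under 0.05, before or after adjustment, for promoter peaks or for gene-body cover. Of all protein-coding genes, 0.199% had an unadjusted p under 0.05 with promoter peaks on the MNA side and 0.105% on the other side. For gene-body cover the shares were 2.08% higher in MNA lines and 0.398% higher in single copy lines. Every MNA list held more peaks (88496 to 112412) than any single copy list (70816 to 86079). A difference by *MYCN* status therefore cannot be told apart here from one of list length. After Benjamini-Hochberg adjustment over all genes 0 genes passed in either test (exact test of Fisher and exact permutation test), where the counts at an unadjusted p under 0.05 were 61 and 498. The smallest p that 4 against 4 lines allows is 0.0286, which the adjustment over 20090 genes cannot carry below the threshold unless a large share of genes reaches it. Among the members the lowest p were 0.429 for promoters (*TWIST1* and *PRRX1*) and 0.171 for gene bodies (*NOTCH3*).

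The genes whose promoter cover over the 8 lines was most like that of a member were found by Pearson's r, for members with promoter cover in at least 3 lines. For *TWIST1* they were *USP10* (r = 0.977), *COX8C* (0.977) and *GPHA2* (0.973), and for *WWTR1* they were *FLT4* (0.975), *PGBD5* (0.97) and *IL17RA* (0.968). For *NOTCH3* they were *MADD* (0.912), *AMPD3* (0.895) and *VPS26C* (0.881). These are the closest of about 20090 genes over 8 points from the same 8 lists, and no member was among those named.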

How the data were processed

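Captured DNA of 8 NB lines was sequenced, 1 sample per line. The authors ran Bowtie 0.12.7 to place paired reads of 45 bp on GRCh37, then MACS on every line separately to find peaks. The deposited lists give each peak's position and its score, which MACS derives from the p-value of the peak, and no read counts. The options of the peak calling and an input control are not given in the sources used here, and the number of reads behind a list was not used, so a missing peak may reflect depth.

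Windows and gene records came from GENCODE release 44 on GRCh37, and a peak had to overlap by at least 1 bp. Scores were used to describe and filter peaks. Cover, Fisher's exact tests, exact permutation tests and Benjamini-Hochberg adjustment over 20090 genes were computed with Python 3.11.15, numpy 2.4.6, pandas and scipy 1.17.1. Cover and both tests were also run on simulated data with large planted differences, which checks the code and not the power of the tests. CpGs were counted in the GRCh37 sequence. SK-N-AS was compared with the 7 other lines without a test. The members and gene lists were chosen with earlier results of these data known. All 10 members are described, genes of other lists as counts except where SK-N-AS alone has or lacks a promoter peak or the MYCN groups separate, and the 3 genes closest to each member with promoter cover in at least 3 lines, where those of *RUNX1* are not reported here. Cultures were not repeated, so the p-values compare the *MYCN* groups with each line as 1 unit. No spread within a line was estimated.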

Additional observations from a re-analysis of the deposited data

Results flagged for a closer look

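In groups of 4 lines, 8 values lay farther from their nearest neighbour than Dixon's critical gap allows at the 95% level, out of 32 groups checked, where chance gives about 1 in 20. A group with 3 lines at 0 meets the limit whenever the fourth has any peak, and 6 of the 8 are of this kind. These were the promoter cover of *RUNX1* in SK-N-AS (438 bp), *RUNX2* in SK-N-AS (89 bp), *FOSL1* in IMR-32 (354 bp), *FOSL2* in IMR-32 (515 bp) and in SH-SY5Y (730 bp) and *YAP1* in N206 (59 bp), each against 0 bp in the 3 other lines of the same *MYCN* status. The body cover of *RUNX2* in CHP-902R was 2.17%, against 0.686% to 0.867% in the 3 other MNA lines, and the body cover of *FOSL2* in SH-SY5Y was 14.8%, against 2.38% to 4.4% in the 3 other single copy lines.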

How the results depend on the processing

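No paired analysis was possible because each line is a single sample and the replicate numbers were given in accession order, so they pair nothing. Limiting peaks to a score of at least 100 changed most. Promoter peaks then remained at 5 members in any line and at 0 in SK-N-AS, SK-N-AS lay above the others in gene-body cover at 0 and below at 0, 1 member (*RUNX1*) passed p under 0.05 by *MYCN* status for body cover, and 12 genes for promoters and 144 for bodies did so among all genes. Under this limit the difference MNA minus single copy changed sign for *FOSL2* (-0.346) and *NOTCH3* (0.62) in body cover and for *NOTCH3* in promoter share (50 percentage points), none past the threshold. With equal numbers of peaks SK-N-AS was above at 2 members and below at 0, and the sign changed for *FOSL1* (2.28) and *FOSL2* (-1.89). Counting peak midpoints it was above at 2, and 212 genes passed for bodies. The *RUNX2* promoter call of SK-N-AS, its 1 sole call, fell to 0 with a score of at least 100, equal numbers, midpoints, an overlap of at least 100 bp, 1 TSS per gene, the canonical TSS or a window ending at 500 bp. With 1 TSS per gene 5 members kept a promoter peak, 1 of them in SK-N-AS, and 28 genes passed. Chosen after seeing the data, the canonical TSS left 4 members and 0 in SK-N-AS, with 26 genes, the canonical transcript kept 3 members above and 1 below, and subtracting the flanks left 4 above (*RUNX2*, *FOSL1*, *YAP1* and *NOTCH3*) and 0 below. The cause of these shifts was not tested. At these settings, and with 1 line left out, the SK-N-AS counts and the counts of members with a promoter peak were taken on the members alone. Their shares over all genes were not computed there, apart from 49.3% for the canonical TSS in any line. The shares over all genes given for the main setting therefore do not apply to them. Leaving out 1 line at a time gave 112 to 145 genes for promoters and 331 to 742 for bodies, 4 to 5 members above, 0 to 1 members that SK-N-AS alone lacks (1 without SH-SY5Y, *TWIST1*; 5 above without CHP-902R, *YAP1* added) and 0 members by *MYCN* status.
Over these the difference in body cover, MNA minus single copy, ran from -0.107 to 0.79 at *RUNX2*, -6.78 to 1.62 at *FOSL1*, -0.456 to 3.7 at *FOSL2*, -0.518 to 0.49 at *TWIST1*, -0.122 to 0.557 at *YAP1* and -0.0549 to 1.01 at *WWTR1*.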

Other observations

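Other genes of the same pathways, taken as lists with earlier results of these data known, were read in the same way. Promoter peaks in 1 line or more were found at 6 of the 8 other AP-1 genes, at 10 of the 10 TEAD and Hippo genes, 2 of the 2 RUNX partners, 9 of the 14 other Notch pathway genes and 7 of the 8 other genes of epithelial-mesenchymal transition, where the share over all genes was 74.1%. In SK-N-AS the counts were 3, 7, 1, 4 and 4 in this order (33.8% over all genes), and the other lines ranged over 1 to 4, 3 to 8, 0 to 2, 1 to 5 and 2 to 4. SK-N-AS was inside these ranges for all 5 lists.

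*ATF3*, a stress-induced partner of AP-1 factors, had promoter cover of 450 bp in CHP-902R, 753 bp in IMR-32, 1042 bp in LAN-2 and 1692 bp in N206, and 0 bp in the 4 single copy lines. The groups did not overlap (Fisher's exact test, p = 0.0286, the smallest possible, adjusted p = 1), a pattern found in 0.199% of all genes. It was the sole gene of these lists whose promoter peaks separated the *MYCN* groups. The MNA lines also had the longer peak lists, which cannot be told apart from *MYCN* status here. *JUND*, an AP-1 subunit, was the sole gene of these lists with a promoter peak in SK-N-AS alone, with 205 bp covered. Of all genes 1.44% show this pattern, so 1 such gene in lists of this size is not set apart from that share.

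Of 12 mesenchymal marker genes 8 had a promoter peak in SK-N-AS and 4 to 9 in the others, with 9 in IMR-32 and 9 in SH-SY5Y. The shares over all genes were 33.8% in SK-N-AS and 33.4% to 41.1% in the others. Gene-body cover in SK-N-AS lay above every other line at 4 of them, *AXL* (7.83%), *COL1A1* (13.1%), *CDH11* (2.6%) and *CDH2* (1.62%), and below at 0, where the shares of all genes were 7.97% and 6.68%. A line tied at 0 does not count as below. SK-N-AS was under the mean of the other lines at 5 markers, with 0% at *CCN1* (mean 12%), *CCN2* (5.89%) and *COL1A2* (1.53%), 2.89% at *THY1* (4.41%) and 0.774% at *CD44* (1.05%), each within the range of those lines. At *VIM*, *FN1* and *TNC* it was above the mean and within the range. Of 10 adrenergic transcription factors 2 had a promoter peak in SK-N-AS (33.8% over all genes) and 2 to 5 in the others (33.4% to 41.1%). In gene-body cover SK-N-AS lay outside the range of the other lines at 0 of them. Among the 10 TEAD and Hippo genes SK-N-AS lay above at 1, *SAV1* (3%), and below at 1, *VGLL4* (0.797%). Among the 14 other Notch pathway genes it lay above at 0 and below at 2, *JAG1* (2.54%) and *HEYL* (1.82%). It lay outside the range at 0 of the 8 other AP-1 genes, the 2 RUNX partners and the 8 other genes of epithelial-mesenchymal transition. The shares of all genes were 7.97% above and 6.68% below, and these small counts were not tested. The genes named for their body cover were chosen after their values were seen.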
